A study of Homo sapiens with 4 samples.

Results

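The genes described here are those whose symbol starts with UBE2, the ubiquitin-conjugating enzymes, in RNA-seq of cells labelled NB4, a human line from acute promyelocytic leukemia. Of 42 UBE2 symbols in a table of 16504 gene symbols, 32 were kept as members. The other symbols were 6 pseudogenes, 3 antisense genes and 1 read-through gene. The 32 members were listed as 92 RefSeq transcripts, which were summed to 1 value per gene.

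The labels give 2 libraries with CEBPG present, titled NC and called controls here, and 2 libraries with CEBPG knockdown, titled CEBPG3 and called knockdowns here. CEBPG belongs to the C/EBP group of transcription factors, which dimerize through a leucine zipper. In the study, hairpin RNAs were delivered to leukemia cells by a lentiviral vector and stable cells were selected with puromycin. The number in the title was read as hairpin 3 of the study. With 1 hairpin, an effect of that hairpin and an effect of less CEBPG cannot be told apart. Nothing in the labels says that the replicates came from separate cultures, so p-values measure only the spread between these libraries, which may be technical.

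Ubiquitin is joined to proteins in a relay. An E1 enzyme activates it, an E2 enzyme carries it on an active-site cysteine, and an E3 ligase brings the loaded E2 to a substrate. Most UBE2 proteins carry ubiquitin, some carry a ubiquitin-like modifier instead, and the choice of E2 helps to set which lysine is linked and so what the mark does.

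Values are FPKM, fragment numbers scaled for transcript length and library size, so levels of different genes can be set side by side. Columns summed to 346170 to 367105 FPKM, and read depth was unknown. CEBPG itself was at 17.1 and 18.1 FPKM in controls and at 6.91 and 7.96 FPKM in knockdowns. Marker levels went against the label NB4. Of 14 promyelocytic and myeloid genes, 8 were under 1 FPKM in every library, among them AZU1 and PRTN3, which encode granule proteins. The 14 genes together made 58.6 to 59.6 FPKM in the control and 63.8 to 64.9 FPKM in knockdowns. Of 20 erythroid genes, 16 were at 10 FPKM or more in every library, and their sum was 8384 to 8865 FPKM in the control and 9265 to 9827 FPKM in knockdowns. SLC4A1, EPB42 and AHSP, also erythroid markers, were under 1 FPKM. Of 6 lymphoid markers, 5 were under 1 FPKM in every library, and CD3D, at 32.3 and 33.3 FPKM in controls and 67.0 and 56.3 FPKM in knockdowns, was the exception.

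Members spanned a wide range of levels. UBE2S and UBE2L3 were over 100 FPKM, 10 members had means of 40 to 60 FPKM, 13 lay from 10 to 40 FPKM and 7 lay under 10 FPKM. UBE2S, which extends ubiquitin chains for the anaphase-promoting complex, was highest at 281 and 247 FPKM in controls and 299 and 271 FPKM in knockdowns. UBE2L3, which hands ubiquitin to the cysteine of HECT and RBR ligases, was next at 182 and 175 FPKM, and 167 and 168 FPKM. Neighbours among the members at 40 to 60 FPKM often differed by less than the spread between replicates. UBE2E1, UBE2G2 and UBE2D2, for example, had ranges in controls of 47.2 to 48.5, 47.2 to 48.0 and 47.7 to 48.3 FPKM. Together the members made up 0.353% of FPKM in both controls, and 0.346% and 0.348% in knockdowns.

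**Figure D1:**
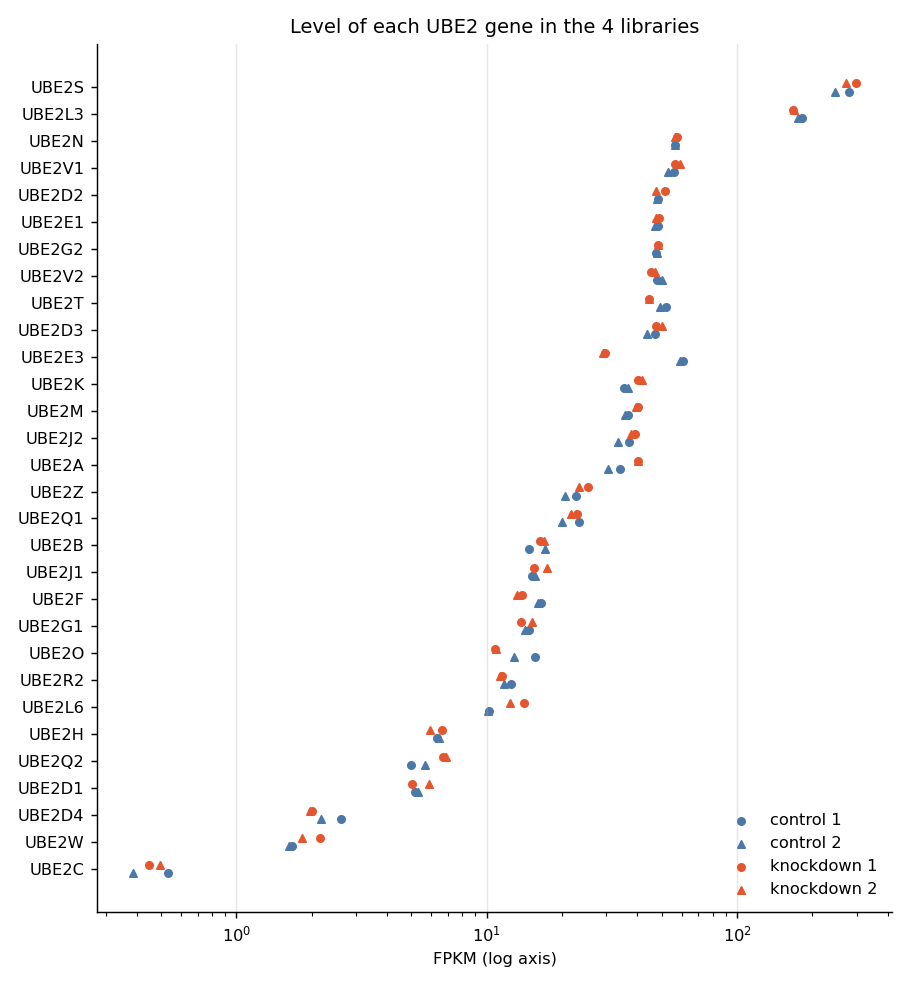
FPKM (log axis) of 30 UBE2 genes in each library, ordered by the mean over the 4 libraries. Circles and triangles mark replicates 1 and 2, and UBE2E2, listed at 0 in 1 library, is not drawn. UBE2E3 is the gene whose control values (60.8 and 59.2 FPKM) and knockdown values (29.7 and 29.2 FPKM) stand farthest apart.

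To address which members depend on CEBPG, knockdown and control libraries were compared by limma on log2(FPKM + 1) over all genes whose mean reached 1 FPKM. Of the 32 members, 30 passed this filter, and 6 had an adjusted p under 0.05, with 3 lower (UBE2E3, UBE2O, UBE2F) and 3 higher (UBE2A, UBE2L6, UBE2Q2) in the knockdown. Of all 10968 genes tested, 20.9% passed the same threshold, so the share of members was close to the background. At an unadjusted p under 0.05, 8 members passed, against 37.0% of all genes. The background of calls was 10.9% for higher and 9.99% for lower genes. This balance depended on single controls, since 1215 genes were higher and 716 lower without control 1, but 720 higher and 948 lower without control 2, against 1192 and 1096 with all libraries. Without knockdown 1 or knockdown 2, 809 and 865 genes were called in all. After median-ratio scaling or scaling of columns to one sum, 6 members were again called, but 2 were higher and 4 lower, as UBE2Q2 was lost and UBE2T was gained. The groups did not overlap in 21 of the 30 members, against 64.8% of all genes tested. The median log2 fold change of the 30 members was 0.043, against 0.015 for all genes tested, and the median absolute change was 0.11, against 0.15. Because bulk RNA was measured, fewer cells expressing a gene and less of its RNA per cell cannot be told apart.

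**Figure D2:**
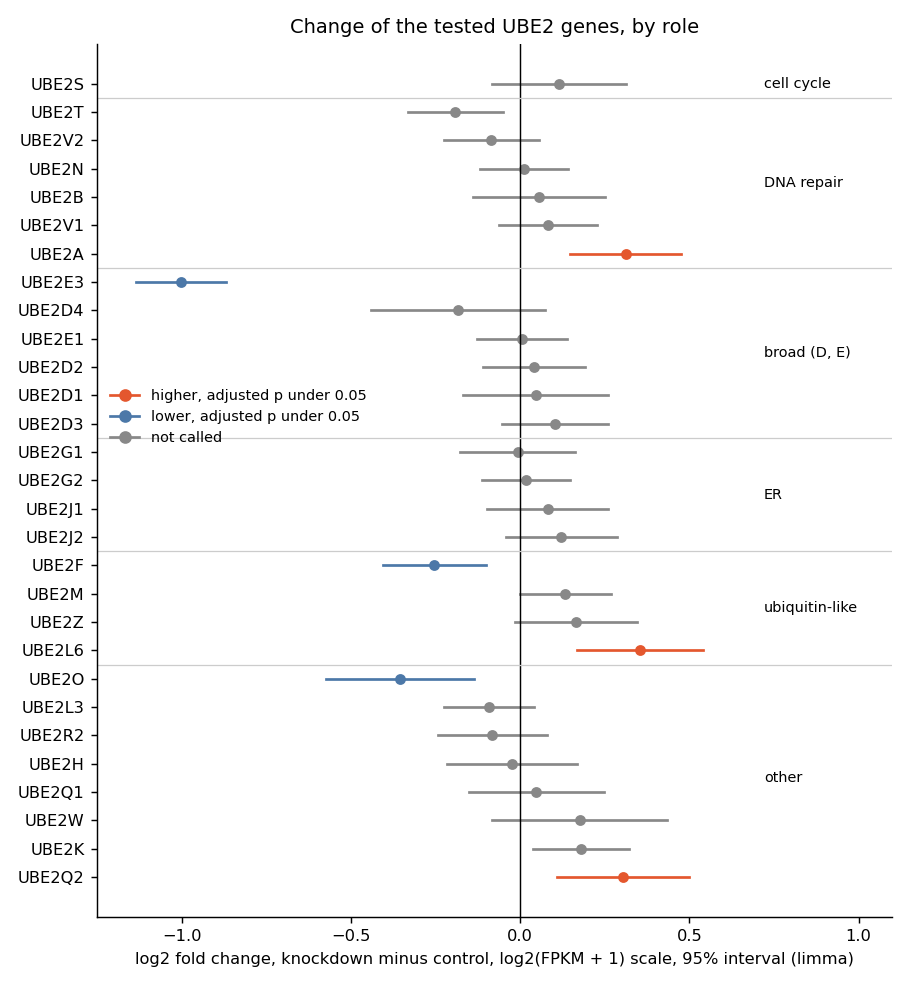
Log2 fold change (knockdown minus control, on the log2(FPKM + 1) scale) of 29 tested UBE2 genes, grouped by role, with 95% intervals from limma. UBE2E3 lies at -1.002, and the genes that were not called lie between -0.19 and 0.18.

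UBE2E3 carried by far the largest change among the members. It is an E2 of the broad D and E classes that work with many RING ligases, and it is imported into the nucleus once loaded with ubiquitin. UBE2E3 lies at chr2:180967248-181076585 on the plus strand (hg38, GENCODE 44). It was at 60.8 and 59.2 FPKM in controls and at 29.7 and 29.2 FPKM in knockdowns. Both knockdown libraries lay far below both control libraries. Group means were 60.004 ± 1.19 FPKM in controls and 29.5 ± 0.328 FPKM in knockdowns (± SD, n = 2 each), so that 49.1% of the control level remained. On the log2(FPKM + 1) scale it changed by -1.002, with an SE of 0.056 (limma, adjusted p = 0.000481). Only 42 of the 10968 tested genes had a lower fold change. By level, UBE2E3 ranked 3 among the members in the control and 16 in the knockdown.

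The drop of UBE2E3 was seen in its main transcript. NM_006357, which held 86.9% to 91.1% of UBE2E3 in each library, was at 54.7 and 53.9 FPKM in controls and at 26.6 and 25.4 FPKM in knockdowns. Tested among 15795 transcripts, it changed by -1.04 (limma, adjusted p = 0.0432). Of 55 tested member transcripts it was the only 1 with an adjusted p under 0.05, against 0.158% of all transcripts tested, and 10 had an unadjusted p under 0.05, against 20.3%. The second transcript, NM_001278554, was at 3.25 and 3.98 FPKM in controls and 1.72 and 1.59 FPKM in knockdowns (-0.79, limma adjusted p = 0.117). The other two, NM_182678 and NM_001278555, were each listed at 0 in 1 library.

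The stretch of DNA before the upstream start of UBE2E3 in RefSeq (GRCh38.p14) is shown because this member carried the result, with letters of the motifs searched in capitals. It spans chr2:180980110-180980359 on the plus strand, ends at the base before the start, and lies inside the GENCODE bounds of the gene but in no exon. The corresponding stretch of UBE2F, also lower, is chr2:237966764-237966826 on the plus strand, cut where an exon begins. That of UBE2O, the other lower member, is chr17:76453153-76453350 on the minus strand, likewise without exons.
UBE2E3: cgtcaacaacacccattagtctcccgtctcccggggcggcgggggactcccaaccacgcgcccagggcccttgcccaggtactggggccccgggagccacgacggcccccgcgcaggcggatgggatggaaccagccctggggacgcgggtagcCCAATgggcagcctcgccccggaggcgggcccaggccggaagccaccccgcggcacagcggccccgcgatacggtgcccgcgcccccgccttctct
UBE2F: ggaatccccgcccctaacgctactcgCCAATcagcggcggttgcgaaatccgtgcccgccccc
UBE2O: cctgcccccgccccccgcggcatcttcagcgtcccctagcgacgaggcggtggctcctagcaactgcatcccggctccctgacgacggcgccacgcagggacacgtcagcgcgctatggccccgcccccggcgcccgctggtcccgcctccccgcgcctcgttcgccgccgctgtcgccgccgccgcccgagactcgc

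Capitals in these lines mark CCAAT, the core of the CCAAT box, and the UBE2O stretch holds none of the motifs searched. Promoter windows of 250 bases before to 50 bases after each RefSeq start were used for 25 of the 32 members, 37 windows in all. These were searched on both strands. Windows on chromosome 8, where UBE2V2 and UBE2W lie, were left out, both for members and for all genes. TGATGNAAN, the composite element of C/EBP and ATF factors, was in none of the 37 and in 3.61% of 35116 windows of all genes. TTGCGCAA, the C/EBP palindrome, was in none and in 0.151%. CCAAT was in 10 windows of 8 members and in 34.6% of all windows. Of those members UBE2E3 and UBE2F were lower, while UBE2T, UBE2E1, UBE2D3, UBE2D2, UBE2Z and UBE2S were not called. TTTGAA, an element of cell cycle genes, was in 2 windows (UBE2F and UBE2T) and in 15.2% of all, and its variant TTTAAA in 3 windows and in 12.2%. The motifs share no bases in the stretches shown. These matches describe letters in a window and do not show binding, and the absence of a match says nothing of a factor.

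UBE2E1, a close relative, overlapped between the groups. It was at 48.5 and 47.2 FPKM in controls and at 48.6 and 47.5 FPKM in knockdowns. Its change was 0.0055, with a 95% interval of -0.13 to 0.14 (limma, adjusted p = 0.955), while the interval of UBE2E3 ran from -1.14 to -0.87. Within a library the ratio of UBE2E3 to UBE2E1 was 1.25 in both controls and 0.612 and 0.615 in knockdowns, and the exact permutation test of that ratio gave p = 0.333, the smallest it can give with 2 against 2. Exons of NKIRAS1 on the other strand cover 63.5% of the UBE2E1 transcript, so its level is uncertain if reads were counted without strand. UBE2E2 was listed between 0 and 0.0959 FPKM and was not tested, and only 1 of its 5 RefSeq accessions had values here.

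A pseudogene of the same group, UBE2E4P on chromosome X, was lower as well. It was at 3.60 and 3.51 FPKM in controls and at 1.83 and 2.36 FPKM in knockdowns, a change of -0.56 (limma, adjusted p = 0.0162). Of the words of 75 bases in its transcript, 6.55% also occur in UBE2E3, and 2.09% of those of UBE2E3 occur in it, so reads could be divided between both, which was not tested. UBE2E4P was at most 3.60 FPKM in any library.

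**Figure D3:**
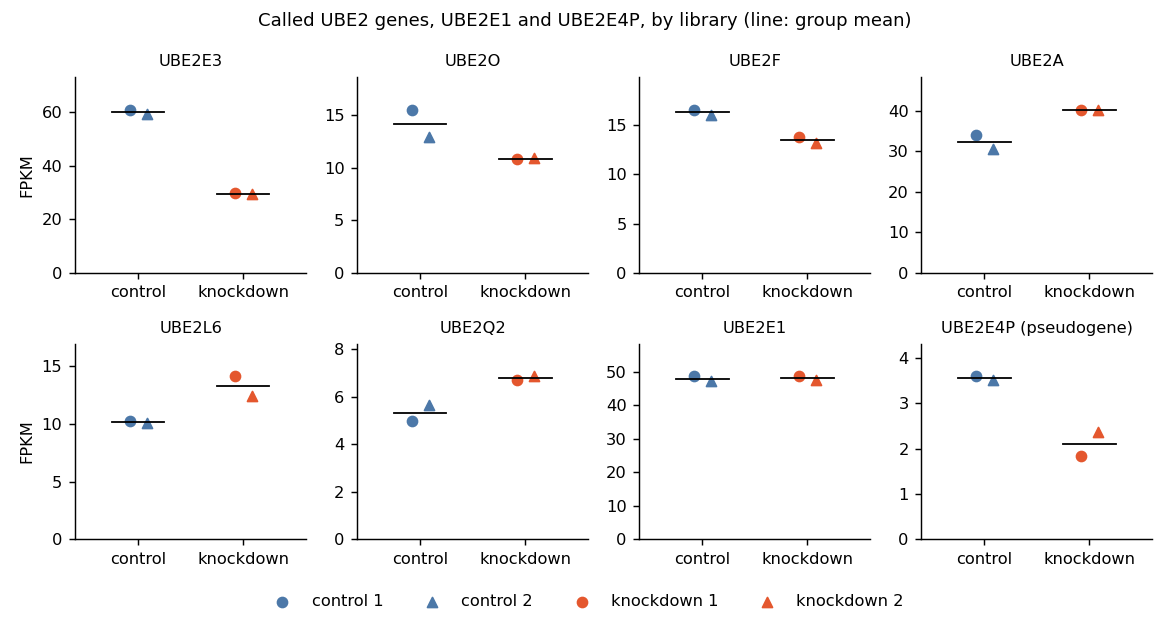
FPKM by library (points) and group mean (line) of the 6 called UBE2 genes, of UBE2E1 and of the pseudogene UBE2E4P, each axis starting at 0. UBE2E3 and UBE2E4P are lower in both knockdowns, whereas UBE2E1 overlaps between the groups.

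Of the 4 UBE2D genes, which serve a wide set of ligases, limma called 0, against 20.9% of all genes, and 0 had an unadjusted p under 0.05, against 37.0%. UBE2D2 was at 48.3 and 47.7 FPKM in controls and 51.5 and 47.4 FPKM in knockdowns, and UBE2D3 at 47.2 and 43.6, and 47.4 and 50.2 FPKM. Their changes were 0.040 and 0.10 on the log2(FPKM + 1) scale, with 95% intervals of -0.11 to 0.19 and -0.054 to 0.26. UBE2D1 and UBE2D4 were low, at 5.01 to 5.87 FPKM and 1.97 to 2.63 FPKM over the 4 libraries.

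Among E2 enzymes of DNA repair, 1 of 6 was called, against a background of 20.9%. UBE2A, a RAD6 homolog that acts with RAD18 on PCNA and with RNF20 and RNF40 on histone H2B, rose. It lies at chrX:119474802-119591083 on the plus strand. It was at 34.0 and 30.5 FPKM in controls and at 40.1 and 40.3 FPKM in knockdowns. Both knockdown values lay above both control values, and group means were 32.2 ± 2.43 FPKM and 40.2 ± 0.123 FPKM (± SD, n = 2 each), a change of 0.31 (limma, adjusted p = 0.0228). Without control 2 it was 0.24 and no longer called (limma, adjusted p = 0.0524), nor was it called without knockdown 1 (0.114) or knockdown 2 (0.106).

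UBE2B, the other RAD6 homolog, was at 14.8 and 17.1 FPKM in controls and 16.3 and 16.9 FPKM in knockdowns, so its groups overlapped. Its change was 0.057, with a 95% interval of -0.14 to 0.25. The ratio of UBE2A to UBE2B was 2.30 and 1.78 in controls and 2.47 and 2.38 in knockdowns (exact permutation test, p = 0.333, the smallest possible). Their E3 partners RAD18, RNF20 and RNF40 were not called. Of these RNF40 came nearest, at 25.7 and 22.2 FPKM in controls and 19.9 and 20.2 FPKM in knockdowns (-0.24, limma adjusted p = 0.0746).

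UBE2N builds chains that signal in DNA repair and immune responses together with UBE2V1 or UBE2V2, which lack the active-site cysteine. UBE2N was at 56.4 FPKM in both controls and at 57.3 and 56.5 FPKM in knockdowns, a change of 0.011 with a 95% interval of -0.12 to 0.14. The log2 fold change of UBE2V1 was 0.082 and that of UBE2V2 -0.086 (limma, adjusted p = 0.364 and 0.336). Nearly all of UBE2V1 (97.9% of its words of 75 bases) is shared with the read-through gene PEDS1-UBE2V1, and exons of NUDT4 on the other strand cover 50.5% of UBE2N, so both levels are uncertain.

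UBE2T, which acts with FANCL in the Fanconi anemia pathway, was at 52.2 and 49.3 FPKM in controls and at 44.3 FPKM in both knockdowns. Its change was -0.19 (limma, adjusted p = 0.0608), short of the threshold. It passed after median-ratio scaling (limma, adjusted p = 0.0207) and scaling to one sum (0.0185), and in the fit of genes with a mean of 5 FPKM or more (0.0497). Of 30 proliferation genes, 12 were lower and 2 higher, so that 46.7% were called, against 20.9% of all genes tested. The largest change in that list was upward, in RRM2, a subunit of ribonucleotide reductase, at 78.05 and 76.1 FPKM in controls and 116 and 120 FPKM in knockdowns (0.61, limma adjusted p = 0.00156). TYMS, thymidylate synthase, was the other higher gene (0.30, limma adjusted p = 0.0145). MKI67, a marker of cycling cells, was at 22.2 and 23.6 FPKM in controls and 16.4 and 17.9 FPKM in knockdowns. CCNB1, the mitotic cyclin, was at 104 and 97.5 FPKM, and 82.7 and 82.6 FPKM. TOP2A, BUB1, MCM5 and KIF11 were among the 16 that were not called. The part of these genes in the value of UBE2T was not tested.

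The mitotic pair UBE2C and UBE2S, which start and extend chains for the anaphase-promoting complex, stood apart in level. UBE2S had a log2 fold change of 0.11, with a 95% interval of -0.084 to 0.31, and 14.3% of its words of 75 bases occur in other genes, mainly pseudogenes. UBE2C was at 0.531 and 0.387 FPKM in controls and at 0.447 and 0.497 FPKM in knockdowns, below the filter. Of the 8 UBE2C accessions in the RefSeq reference, 3 had values here, and the other accessions were not analysed here. NM_007019 was listed at 0 in control 2 and knockdown 1, and NM_181801 in control 1 and knockdown 2. CDC20, the activator of the same complex, was at 90.6 to 101 FPKM. The values of UBE2C thus cover only part of its accessions.

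Among the E2 enzymes of degradation at the endoplasmic reticulum, none of UBE2G2, UBE2J1 and UBE2J2 was called, and neither was UBE2G1, a relative of UBE2G2 that extends chains on cullin substrates (limma, 0 of 4, and 0 of 4 at an unadjusted p under 0.05, against 20.9% and 37.0% of all genes). UBE2G2 stayed in a narrow range, with 47.2 and 48.0 FPKM in controls and 48.2 FPKM in both knockdowns. Its change was 0.017, with a 95% interval of -0.11 to 0.15. UBE2J1, UBE2J2 and UBE2G1 had log2 fold changes of 0.081, 0.12 and -0.0075. SYVN1, a ligase of this route, was higher, at 15.6 and 15.2 FPKM in controls and 18.1 and 18.9 FPKM in knockdowns (0.25, limma adjusted p = 0.0342).

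The 5 E2 enzymes of ubiquitin-like modifiers went both ways, with 1 called higher, 1 lower and 3 not called, against a background of 10.9% higher and 9.99% lower. UBE2F passes NEDD8 to cullin 5 with RNF7, and UBE2M passes NEDD8 to the other cullins with RBX1. UBE2F, at chr2:237966827-238042782, was at 16.5 and 15.996 FPKM in controls and at 13.8 and 13.2 FPKM in knockdowns. All values of the knockdown lay below those of the control. Group means were 16.3 ± 0.388 FPKM in controls and 13.5 ± 0.414 FPKM in knockdowns (± SD, n = 2 each), a change of -0.25 (limma, adjusted p = 0.0346). It was called in none of the 4 fits that left out 1 library, where adjusted p was 0.0897 without control 1, 0.060 without control 2, 0.112 without knockdown 1 and 0.165 without knockdown 2 (limma).

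UBE2M was at 36.6 and 35.7 FPKM in controls and at 40.2 and 39.3 FPKM in knockdowns, a change of 0.13 (limma, adjusted p = 0.138). The ratio of UBE2F to UBE2M was 0.452 and 0.448 in controls and 0.343 and 0.336 in knockdowns (exact permutation test, p = 0.333, the smallest possible). UBE2F shares exons with the read-through gene UBE2F-SCLY, which was at most 0.372 FPKM. Of 12 genes of the NEDD8 route 2 were called, a share below the 20.9% of all genes. Beside UBE2F this was DCUN1D5, which helps NEDD8 onto cullins, at 8.62 and 8.04 FPKM in controls and 6.43 and 6.01 FPKM in knockdowns (-0.37, limma adjusted p = 0.0185). NEDD8 and its E1 subunits NAE1 and UBA3 were not called.

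UBE2L6 carries ISG15, an interferon-induced modifier. The gene lies at chr11:57551656-57568284 on the minus strand. It was at 10.2 and 10.1 FPKM in controls and at 14.1 and 12.4 FPKM in knockdowns. The knockdown libraries lay above the controls but spread more widely. Group means were 10.2 ± 0.109 FPKM in controls and 13.3 ± 1.199 FPKM in knockdowns (± SD, n = 2 each), a change of 0.35 (limma, adjusted p = 0.0229). Without knockdown 1 it was 0.27 (limma, adjusted p = 0.126), without control 2 it was 0.34 (0.0592), and in the other fits that left out 1 library it was called. ISG15 itself was at 19.4 and 14.2 FPKM in controls and 21.3 and 21.7 FPKM in knockdowns, a change of 0.35 that was not called (limma, adjusted p = 0.097). UBA7, the E1 of ISG15, was between 0.389 and 0.508 FPKM and was not tested.

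Of 11 tested genes of the SUMO route, 2 were higher, 2 were lower and 7 were not called, against 20.9% of all genes called. Both subunits of the E1 enzyme were lower. SAE1 was at 115 and 106 FPKM in controls and at 73.3 and 72.8 FPKM in knockdowns (-0.59, limma adjusted p = 0.00236). UBA2, which holds the catalytic cysteine, was at 108 and 107 FPKM, and 88.8 and 91.1 FPKM (-0.25, limma adjusted p = 0.0207). SUMO2, a modifier, and PIAS3, a SUMO ligase, were higher, by 0.20 and 0.56 (limma, adjusted p = 0.0432 and 0.00531). UBE2Z, which carries FAT10, had a log2 fold change of 0.16, with a 95% interval of -0.016 to 0.35.

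**Figure D4:**
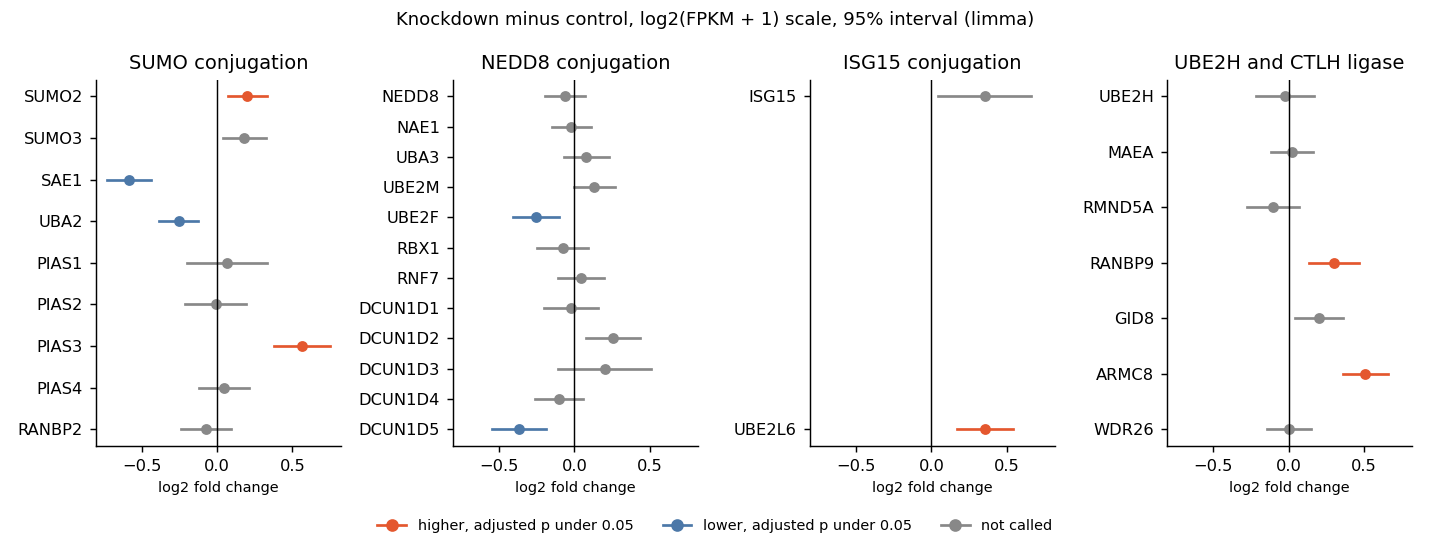
Log2 fold change (knockdown minus control, on the log2(FPKM + 1) scale) with 95% intervals from limma for genes of SUMO, NEDD8 and ISG15 conjugation and of the CTLH ligase with its E2. In the SUMO panel SAE1 (-0.59) and UBA2 (-0.25) lie below 0 while SUMO2 (0.20) and PIAS3 (0.56) lie above it.

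Of the other ubiquitin E2 enzymes, UBE2O was lower and UBE2Q2 higher. UBE2O is a large enzyme with both E2 and E3 activity that clears unneeded proteins in maturing red cells. It lies at chr17:76389456-76453152 on the minus strand, and was at 15.5 and 12.9 FPKM in controls and at 10.8 and 10.9 FPKM in knockdowns. The groups did not overlap, but the controls spread widely. The sum of the 20 erythroid genes given above was higher in both knockdowns, and its part in this value was not tested. Group means were 14.2 ± 1.86 FPKM in controls and 10.8 ± 0.0733 FPKM in knockdowns (± SD, n = 2 each), a change of -0.35 (limma, adjusted p = 0.0372). Without control 1, the higher control, it was -0.23 and not called (limma, adjusted p = 0.0957). Without control 2 it was -0.48 and called (limma, adjusted p = 0.0122), and it was lost without knockdown 1 (0.138) and knockdown 2 (0.115).

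UBE2Q2, a less studied E2 at chr15:75843307-75901078 on the plus strand, was at 4.99 and 5.64 FPKM in controls and at 6.70 and 6.87 FPKM in knockdowns. Group means were 5.32 ± 0.460 FPKM in controls and 6.78 ± 0.117 FPKM in knockdowns (± SD, n = 2 each), a change of 0.30 (limma, adjusted p = 0.0427). The call was lost after median-ratio scaling (limma, adjusted p = 0.0566) and scaling to one sum (0.0765), and without control 1 (0.141), knockdown 1 (0.134) and knockdown 2 (0.149). Its main transcript NM_173469 overlapped between the groups, with 3.91 and 4.66 FPKM in controls and 4.30 and 5.14 FPKM in knockdowns. NM_001284382 was at 1.08 and 0.837 FPKM, and 2.38 and 1.69 FPKM.

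The remaining members were not called. UBE2K, which links ubiquitin for the proteasome, came nearest, at 35.3 and 36.8 FPKM in controls and 40.03 and 41.9 FPKM in knockdowns (0.18, limma adjusted p = 0.0768). The log2 fold change of UBE2L3 was -0.093, and that of UBE2R2, a relative of the SCF enzyme CDC34, was -0.082. UBE2Q1 had a value of 0.048 and UBE2W, which marks protein N-termini, one of 0.18 at 1.62 to 2.15 FPKM. Over the 24 members that were tested and not called, 95% intervals reached from -0.44 to 0.43, and a missing call does not show that a gene was unchanged.

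UBE2H works with the CTLH ligase, which is known for its part in red cell maturation. UBE2H was at 6.34 and 6.44 FPKM in controls and at 6.65 and 5.91 FPKM in knockdowns, a change of -0.024 with a 95% interval of -0.22 to 0.17. Of 7 genes of this route, UBE2H included, 2 were higher, against 10.9% of all genes, and these were the scaffold subunits ARMC8 and RANBP9. ARMC8 was at 8.78 and 8.70 FPKM in controls and 12.9 and 12.8 FPKM in knockdowns (0.51, limma adjusted p = 0.00389). RANBP9 was at 38.8 and 37.5 FPKM, and 44.8 and 50.03 FPKM (0.30, limma adjusted p = 0.0268). MAEA and RMND5A, the RING subunits, and GID8 and WDR26 were not called.

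Outside the UBE2 symbols, 7 other genes hold the same protein fold or a related one, among them CDC34 and BIRC6, and 0 of the 7 were called by limma, with 2 at an unadjusted p under 0.05. CDC34, an E2 of the SCF ligases, came nearest, at 87.9 and 75.1 FPKM in controls and 68.1 and 64.2 FPKM in knockdowns (-0.29, limma adjusted p = 0.0512). Of 9 tested E1 genes, 2 were lower, the SUMO E1 subunits. Of 13 tested genes of ubiquitin and its relatives, SUMO2 was higher. Of 47 tested E3 ligases, their subunits and cofactors, 4 were higher and 4 lower, and 17.0% were called. The lower ones were RNF8, DCUN1D5, UBR2 and ARIH2, with log2 fold changes of -0.41, -0.37, -0.25 and -0.23. The higher ones were PIAS3, ARMC8, RANBP9 and SYVN1, with values given above. The share of all genes called was 20.9%, and 37.0% had an unadjusted p under 0.05, so none of these lists is read as standing out.

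Transcripts of 1 gene were divided differently between libraries while the gene sum held. For UBE2L3, the main transcript NM_003347 was at 151 and 149 FPKM in controls, 107 FPKM in knockdown 1 and 140 FPKM in knockdown 2. The non-coding NR_046082 was at 23.7 and 18.8 FPKM, and 50.8 and 19.0 FPKM. Knockdown 1 thus stood apart from its replicate in both transcripts, while the sums were 167 and 168 FPKM. For UBE2D3, with 10 transcripts, NM_003340 was at 10.1 and 6.77 FPKM in controls and at 23.0 and 10.99 FPKM in knockdowns. NM_181891 was at 12.0 and 19.0 FPKM, and 10.1 and 23.8 FPKM. Of the 92 member transcripts, 27 were listed at 0 in at least 1 library, and none at 0 in both libraries of a group.

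**Figure D5:**
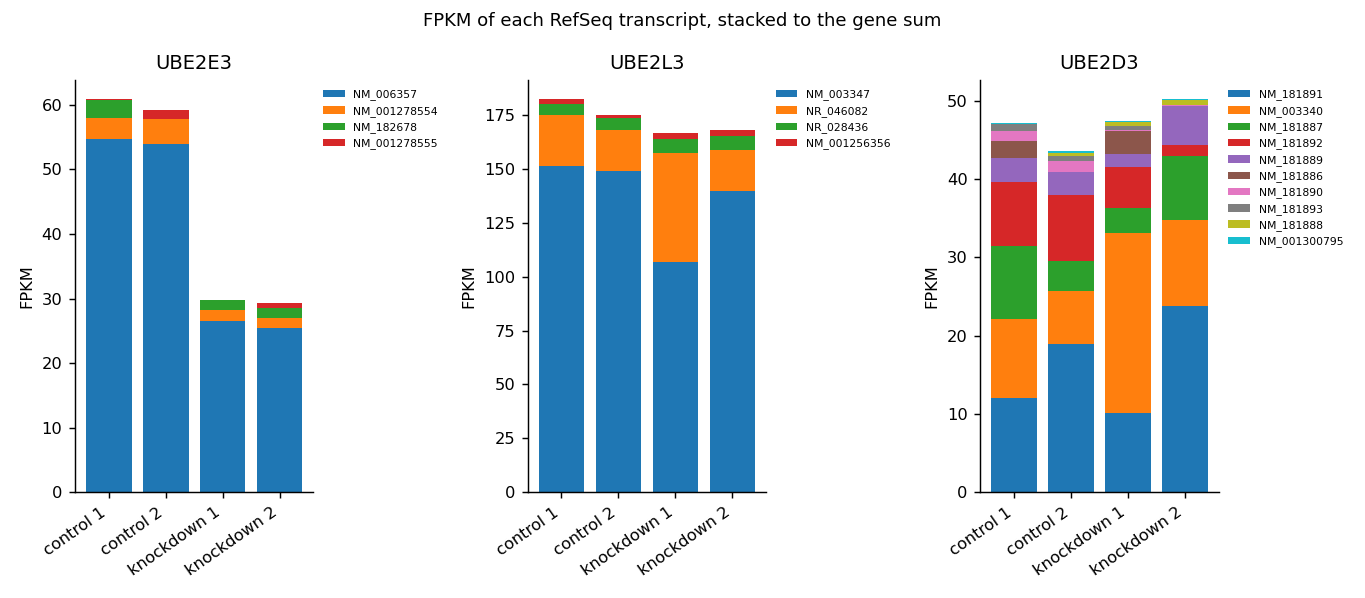
FPKM of each RefSeq transcript of UBE2E3, UBE2L3 and UBE2D3, stacked to the gene sum, in the 4 libraries. In UBE2E3 the main transcript falls with the sum, whereas in UBE2L3 and UBE2D3 the division changes between libraries and the sums stay close.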

How the data were processed

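Total RNA of 2 control and 2 knockdown libraries was sequenced after TruSeq preparation, per the labels. The authors mapped filtered reads with HISAT (HISAT2 2.0.5 and hg38 in the submitters' processing notes) and deposited FPKM values for 29265 RefSeq transcripts in 4 libraries. The quantifier, its use of strand and the annotation release are not given in the sources used here. Blank rows (183) and rows without a symbol (164, 0.250% of FPKM) were left out. Whole reads could not be recovered: among 2235 genes with 1 transcript and low values in both controls, the most common ratio made up 1.30%. So depth was unknown and no counting interval is given.

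Transcripts were summed per symbol. Pseudogenes were taken from RefSeq biotypes, and UBE2Q2L is now a pseudogene there. Antisense and read-through genes, which encode no E2, were also left out, and have values in the text only where a result touches them. Genes whose mean reached 1 FPKM were tested on log2(FPKM + 1), which understates changes of low genes, in limma 3.58.1 (R 4.3.3) with a mean trend, 2-sided, with Benjamini-Hochberg adjustment over all tested genes and no replicate block. The threshold was an adjusted p under 0.05. Intervals are 95% moderated intervals. Tested on simulated data, the fit called most changes as large as that of UBE2E3 and few as small as those of the other called members. Far fewer genes were changed in the simulation than were called here, which makes the adjustment stricter. These rates therefore do not carry over to the libraries. Positions and overlaps are from GENCODE 44 and promoter sequences from RefSeq (GRCh38.p14).

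Counts cover all members, and 1 member and 1 related gene are not reported here by name. Values were given in full for called members, and of related genes those called could be named; others named were chosen after their values were seen, as was the grouping of related genes by modifier. Members, gene lists, markers and motifs were chosen with earlier results of these data known. Alternatives were a pseudocount of 0.1, no filter, a mean of at least 5 FPKM, a replicate block, 2 scalings, no mean trend, transcripts, and each library left out.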

Additional observations from a re-analysis of the deposited data

Results flagged for a closer look

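A pair of UBE2 symbols outside the comparison lay above both control libraries in both knockdown libraries. UBE2Q2L, a pseudogene, had values of 0.310 and 0.571 FPKM in knockdown 1 and 2, while both controls were listed at 0. UBE2E1-AS1, an antisense gene, was at 0.0391 FPKM in control 1, listed at 0 in control 2, and at 0.0971 and 0.190 FPKM in knockdown 1 and 2. Both were under the filter of 1 FPKM, so neither was tested.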

How the results depend on the processing

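Among the alternatives, UBE2E3 was called in every gene-level fit, at -1.02 to -0.98. The other 5 called members kept their direction in all gene-level fits. The number of called members, 6, was 1 (UBE2E3) with no filter on low values, 3 without a mean trend (UBE2F, UBE2O and UBE2Q2 were lost, limma adjusted p = 0.0543, 0.059 and 0.0503), 1 for transcripts in place of genes, and 1 to 3 with 1 library left out. Of the 76 tested genes for E1 enzymes, modifiers, E3 partners and other related folds, 11 were called, 4 with no filter, 6 without a mean trend and 3 to 9 with 1 library left out. Over all genes 2288 were called, 882 with no filter, 25 for transcripts (3213 at an unadjusted p under 0.05) and 809 to 1931 with 1 library left out. With 1 library left in a group, that library is assumed to vary like the others. With no filter, adjusted p of the 5 lost members was 0.0703 to 0.117 (limma). With the replicate number as a block, 9 members, 23 related genes and 3440 of all genes were called, and the members gained were UBE2S, UBE2K and UBE2T (limma, adjusted p = 0.0441, 0.0325 and 0.023). No label ties same-numbered libraries to each other, and the correlation of their deviations from group means was 0.10. Depth limits could not be given, since FPKM hold no read counts. Causes of these differences were not tested.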
